A study of Homo sapiens with 30 samples.

Results

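Chromosome 19 carries most of its zinc finger genes in a few dense clusters. The regions described here are the SEACR peaks whose midpoints lie in 7 windows placed over those clusters, in hg19 coordinates. They number 1061 of the 587932 peaks in the 30 deposited lists, against 20330 peaks in the rest of chromosome 19. Of the 1061 peaks, 136 were H3K27me3 peaks and 925 were H3K27ac peaks, of which 189 came from cells treated with trichostatin A (TSA, a histone deacetylase inhibitor) and 736 from untreated cells. The windows were set by position alone and not by any measured value.

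The study compared CUT&Tag conditions in K562, an established human leukaemia line, with 500000 cells per experiment per the labels. CUT&Tag tethers a transposase to an antibody on chromatin, and sequencing adapters are inserted close to the mark. The 5 H3K27me3 libraries were made with antibody CST9733 at 1/100 in untreated cells, by SDS extraction at 11, 13 and 15 PCR cycles and by column extraction at 11 and 13. The H3K27ac libraries used ab177178, ab4729 or Active Motif 39133 at 1/100, or Diagenode C15410196. The 4 TSA libraries, at 15 cycles with SDS, used ab177178 and ab4729 at 1/100 and Diagenode at 1/100 and 1/50. The 21 untreated H3K27ac libraries comprised 5 at 15 cycles with SDS, matching those 4 conditions plus Active Motif, and 16 made with each antibody at 11 and 13 cycles with SDS or a column, Diagenode at 1/50. The labels used here give no TSA dose or time. Each condition was 1 library, and the labels do not say whether libraries came from separate cultures, so the p-values below measure only the spread between these libraries. Libraries made with 1 antibody share that reagent and are not independent samples of a mark.

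Zinc finger genes of the KRAB type encode DNA-binding repressors, many of which recognise transposable elements, and they arose by tandem duplication. H3K27me3 is the mark laid down by Polycomb complexes at repressed genes, and H3K27ac marks active promoters and enhancers. Clusters of KRAB zinc finger genes are known in many cell types for heterochromatin carrying H3K9me3, which was not profiled here. In the RefSeq gene table for GRCh38.p14, used for names and gene order only because its build differs from that of the files, 264 of 572 protein-coding genes with a zinc finger symbol (ZNF, ZFP, ZSCAN, ZIM, ZKSCAN or HKR) lay on chromosome 19, or 46.2%. Of the 264, 240 had another zinc finger gene as a neighbour, and the longest unbroken run held 27 genes, beginning at ZNF737, ending at ZNF681 and including ZNF43 and ZNF91. Peaks could not be assigned to these genes, and the K562 marker genes could not be checked, for the same reason.

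The windows are numbered from 1 to 7 along the chromosome. They ran from 9.2 to 9.9 Mb, 11.7 to 12.7 Mb, 19.8 to 24.3 Mb, 36.6 to 38.3 Mb, 44.3 to 45.0 Mb, 52.3 to 53.9 Mb and 56.5 to 58.9 Mb. Together they covered 12.6 Mb, which was 22.5% of the chromosome as analysed, and held 4.96% of its 21391 peaks. The rest of chromosome 19, from the first to the last peak of any list and without the longest peak-free span of 3129 kb, was 43.3 Mb. Lists held 65283 to 106997 peaks for H3K27me3, 4462 to 22808 for TSA H3K27ac and 3024 to 16623 for untreated H3K27ac. Because lists differ in size, every comparison sets the windows of a list against the rest of chromosome 19 in the same list.

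H3K27me3 peaks were sparse in the windows and dense in the rest of the chromosome. The window counts were 42 with SDS at 15 cycles, 23 with SDS at 11, 40 with a column at 11, 13 with SDS at 13 and 18 with a column at 13 cycles. Peak density was 1.03 to 3.33 peaks per Mb in the windows, against 34.0 to 72.9 per Mb in the rest of chromosome 19 and 23.0 to 37.4 per Mb on the other chromosomes. The ranges for the windows and for the rest of the chromosome did not overlap. The mean log2 density ratio of windows over rest was -4.49 ± 0.59 (SD, n = 5 lists), a 22.4-fold lower density, with single lists from -5.36 to -3.76. The density in the windows was also 13.9-fold below that of the other chromosomes. All 5 lists showed this direction, and the exact two-sided sign-flip permutation test gave its smallest possible p for 5 lists, 0.0625 (0.0982 after Benjamini-Hochberg adjustment over the 11 tests made), so this design could not pass 0.05. H3K27me3 peaks covered 0.0632% to 0.350% of window bases, against 2.32% to 9.58% of bases in the rest of the chromosome.

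H3K27ac peaks were also sparser in the windows than in the rest of chromosome 19, by a smaller factor. Untreated lists had 0.873 to 6.51 peaks per Mb in the windows (median 2.54), against 3.92 to 24.9 in the rest of the chromosome (median 7.92). The other chromosomes had 1.00 to 5.58 H3K27ac peaks per Mb (median 2.25). The mean log2 density ratio of windows over rest was -1.77 ± 0.36 (SD, n = 21 lists), a 3.41-fold lower density seen in 21 of 21 lists. The two-sided sign-flip permutation test gave the smallest p that 100000 resamples allow, 1e-05, adjusted 5.57e-05. Set against the other chromosomes instead, the same windows stood at 0.09 ± 0.32 on the log2 scale, with 11 lists higher and 10 lower (permutation p = 0.232, adjusted 0.365). The H3K27ac density of the zinc finger windows was therefore below that of their own chromosome, and no difference from the other chromosomes was detected.

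**Figure D1:**
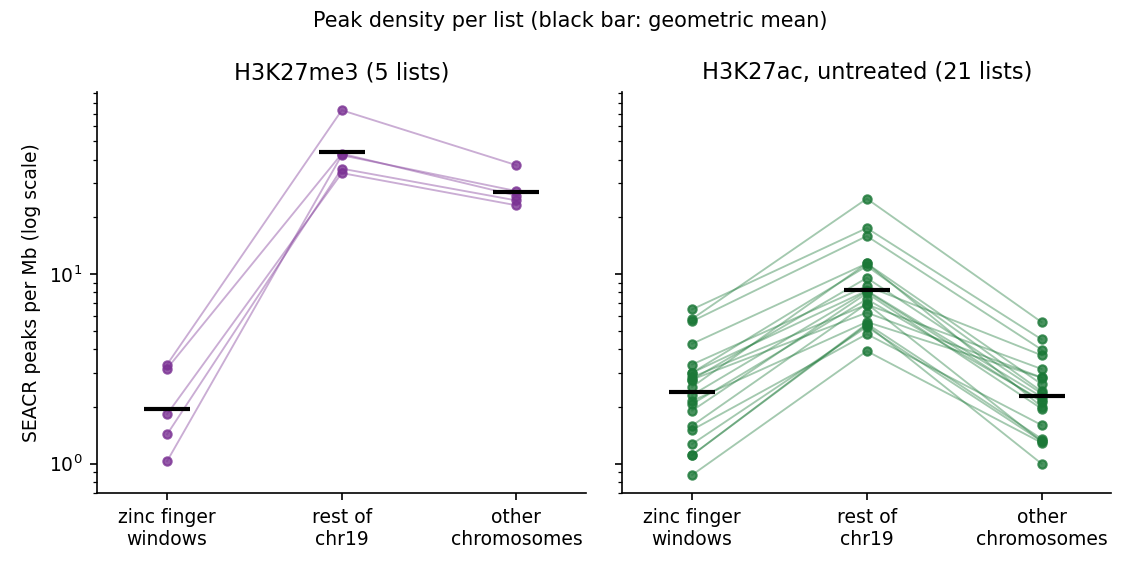
Peaks per Mb on a log axis for each list in the zinc finger windows, the rest of chromosome 19 and the other chromosomes, with H3K27me3 on the left and untreated H3K27ac on the right; each line is 1 list and black bars are geometric means. H3K27me3 lists drop to 1.03 to 3.33 peaks per Mb in the windows, while untreated H3K27ac lists in the windows sit at 0.873 to 6.51, overlapping their range of 1.00 to 5.58 on the other chromosomes.

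The balance between the marks therefore shifted away from H3K27me3 inside the windows. The log2 density ratio averaged -4.49 in H3K27me3 lists and -1.77 in untreated H3K27ac lists, a difference of -2.72. The highest H3K27me3 list, at -3.76, was below the lowest H3K27ac list, at -2.30. The exact two-sided permutation of mark labels over the 26 lists gave its smallest possible p, 1.52e-05 (adjusted 5.57e-05). The share of bases covered differed by -2.76 with the same p and adjusted p.

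Peaks in the windows were slightly narrower than elsewhere on the chromosome for H3K27ac. Median width per untreated H3K27ac list had a log2 ratio of windows over rest of -0.10 ± 0.13 (SD, n = 21), narrower in 18 of 21 lists (permutation p = 0.00195, adjusted 0.00357). H3K27me3 peaks had median widths of 569 to 870.5 bp in the windows, against 588 to 941 bp in the rest of the chromosome, and were narrower in 4 of 5 lists. The width ratio did not separate the marks (difference 0.02, exact permutation p = 0.73, adjusted 0.804). Ranked by total signal within each list, H3K27me3 window peaks had a median percentile of 23.2 to 36.8, against 46.2 to 49.6 for peaks in the rest of the chromosome. The percentile was lower in the windows in 5 of 5 H3K27me3 lists and in 19 of 21 untreated H3K27ac lists.

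Few H3K27ac peaks in the windows lay on H3K27me3 peaks. Each H3K27ac list was set against the H3K27me3 list of the same extraction and cycle number, counting a shared base as overlap. The 5 H3K27me3 lists thus each served several of the 21 untreated H3K27ac lists, so the 21 overlap differences are not independent. Over all chromosomes, 10.4% of untreated H3K27ac peaks overlapped H3K27me3 in this way. In the windows 39 of 736 untreated peaks did so (5.30%), against 780 of 8330 in the rest of chromosome 19 (9.36%), and 11 of 21 lists had no overlapping window peak. The mean difference was -5.14 ± 5.31 percentage points (SD, n = 21), lower in 17 of 21 lists (permutation p = 6e-05, adjusted 0.000165). The 11 lists with no overlapping window peak held only 11 to 35 window peaks each. Every list had some overlap in the rest of the chromosome, so those 11 count as lower by their small counts alone. For them the test cannot tell a lower share from too few peaks. H3K27me3 peaks also covered fewer bases in the windows, and their part in this difference was not tested. With the 50% of each list that had the most signal the difference was -2.77 points and did not pass (adjusted permutation p = 0.0842). Among TSA peaks, 14 of 189 in the windows overlapped (7.41%), against 272 of 2118 in the rest of the chromosome (12.8%), where 15.7% did over all chromosomes.

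The 7 windows were not alike. In windows 2, 3, 4, 6 and 7 the log2 ratio to the rest of the chromosome differed between H3K27me3 and untreated H3K27ac by -4.26, -2.70, -3.01, -4.82 and -2.28, in that order, each with an exact permutation p at the smallest possible value of 1.52e-05 (adjusted over the 7 windows 2.13e-05). The added count of 0.5 enters the sizes in windows 2 and 6, where 1 and 3 of the 5 H3K27me3 lists had a peak. With 1 added instead, the differences there were -3.75 and -4.37, with the same exact permutation p and adjusted p. In window 1 the difference was -1.50 (exact permutation p = 0.0119, adjusted 0.0139). In window 5 it was -0.16, which did not pass the test (exact permutation p = 0.688, adjusted 0.688). The window 5 difference passed in 3 settings, with the other chromosomes as the comparator (-1.32, adjusted p = 0.00141), with 1 instead of 0.5 added to each count (-0.82, adjusted p = 0.0213) and with the 50% of each list that had the most signal (-0.997, adjusted p = 0.0164), all exact permutation tests. In window 5, however, 19 of the 21 untreated H3K27ac lists had no peak, so the added count set their values. The window 5 tests therefore cannot order the marks. With nothing added, mean window 5 density over that of the other chromosomes was 0.138 for H3K27me3 and 0.0516 for untreated H3K27ac, the opposite order. The window 1 difference did not pass with the TSA lists included (-1.19, adjusted exact permutation p = 0.0618).

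Window 5 was poor in both marks against the rest of chromosome 19, though only windows 1 and 7 had a higher mean H3K27me3 density. It held 13 H3K27me3 peaks, found in 5 of 5 lists, against 3 untreated H3K27ac peaks, found in 2 of 21 lists. Its H3K27me3 density averaged 3.71 ± 2.39 peaks per Mb (SD, n = 5) and its untreated H3K27ac density 0.204 ± 0.683 (SD, n = 21). A further 5 TSA peaks all came from 1 of the 4 TSA lists. Just below the lower edge of this window, within 200 kb outside it, untreated H3K27ac lists together held 133 peaks, against none within 200 kb inside that edge.

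Windows 6 and 7 held most of the H3K27ac peaks. Window 6 had 6 H3K27me3 peaks in 3 of 5 lists, against 161 untreated H3K27ac peaks in 21 of 21 lists. Window 7 had 56 H3K27me3 peaks, against 238 untreated H3K27ac peaks, with every list of both marks holding some. H3K27ac densities in windows 6 and 7 were close to each other, at 4.79 ± 3.27 and 4.72 ± 2.30 per Mb (SD, n = 21), and on average 1.87 and 1.88 times the density on the other chromosomes. H3K27me3 density was 0.750 ± 0.685 per Mb in window 6 and 4.67 ± 1.36 in window 7 (SD, n = 5).

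Window 3, the longest at 4.5 Mb, was low in both marks. It held 20 H3K27me3 peaks and 107 untreated H3K27ac peaks, at 0.889 ± 0.567 per Mb (SD, n = 5) for H3K27me3 and 1.13 ± 0.776 per Mb (SD, n = 21) for untreated H3K27ac. That H3K27ac density averaged 0.447 times the one on the other chromosomes. Window 2 held only 3 H3K27me3 peaks, all in 1 list, against 61 untreated H3K27ac peaks in 18 lists. Window 1 held 16 H3K27me3 peaks in 4 lists, against 24 untreated H3K27ac peaks in 15 lists. None of the 4 TSA lists had a peak in window 1.

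**Figure D2:**
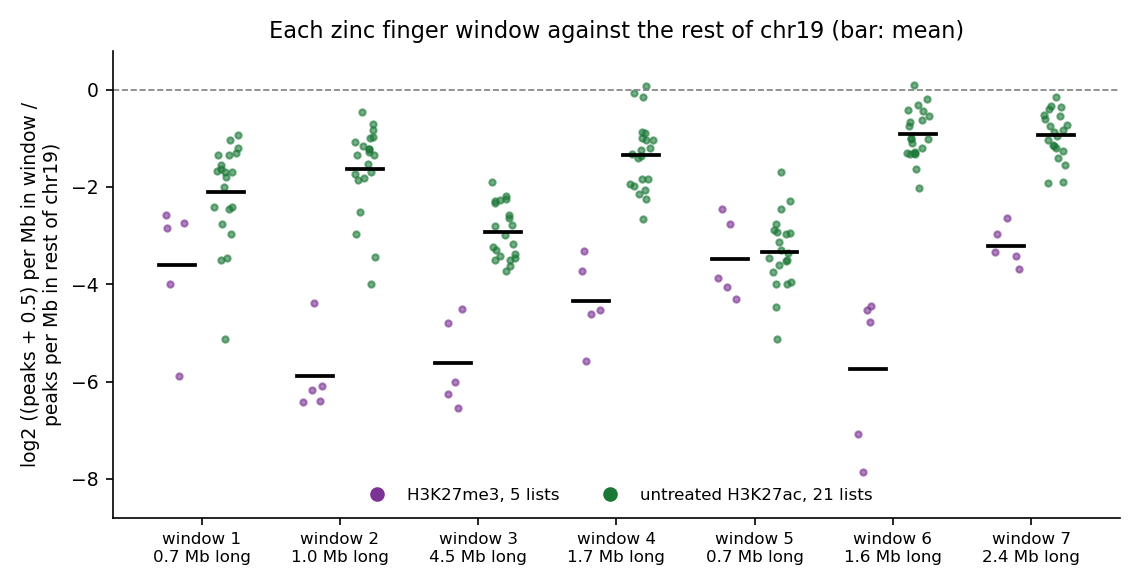
Log2 ratio of peak density in each window, with 0.5 added to the count, over density in the rest of chromosome 19; each point is 1 list, bars are means, with H3K27me3 on the left and untreated H3K27ac on the right of each window. The marks lie apart in windows 2, 3, 4, 6 and 7 and overlap in window 5, where the difference of means is -0.16.

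Window 4 contained a stretch in which both marks were called. On chromosome 19 from 36759525 to 36800051, a length of 40.5 kb holding 2 merged H3K27ac regions wider than 10 kb, lay 17 of the 22 H3K27me3 peaks of the window, 19 of its 49 TSA peaks and 52 of its 142 untreated H3K27ac peaks. The H3K27me3 list at 15 cycles had 12 peaks there, which were all of its peaks in window 4. Among untreated lists, ab177178 had 27 of its 48 window 4 peaks in the stretch and ab4729 had 3 of 31. The stretch held H3K27ac peaks in 9 of 21 untreated lists, so most lists had none there. Without it, the mean log2 density ratio was -4.65 for H3K27me3 and -1.86 for untreated H3K27ac. This stretch was chosen after its values were seen.

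Most H3K27me3 peaks of the windows lay within 200 kb of an edge, but unevenly among the edges. Of the 136, 105 were within 200 kb of a window edge and 31 were deeper. In the 9.8 Mb deeper than 200 kb, H3K27me3 density was 0.633 ± 0.502 per Mb (SD, n = 5), or 1.43% of the density in the rest of the chromosome, and untreated H3K27ac density was 1.90 ± 1.23 per Mb (SD, n = 21), or 20.7%. The mean log2 ratio there was -6.51 for H3K27me3, 90.9-fold below the rest, and -2.35 for untreated H3K27ac, 5.11-fold below. In the first 50 kb inside the edges, H3K27me3 stood at 19.5% ± 9.69 of the rest of the chromosome and untreated H3K27ac at 113% ± 29.3, while in the first 50 kb outside they stood at 28.5% ± 3.19 and 148% ± 54.8 (SD over lists). The lower edge of window 7 alone held 41 H3K27me3 peaks inside. The lower edge of window 4 held 18, of which 17 lay in the stretch with both marks described above. For H3K27ac the upper edge of window 7 held the most, with 103 untreated peaks inside, followed by the lower edge of window 4 with 90. The 52 untreated peaks of that stretch, from 9 of 21 lists, were among the 90.

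**Figure D3:**
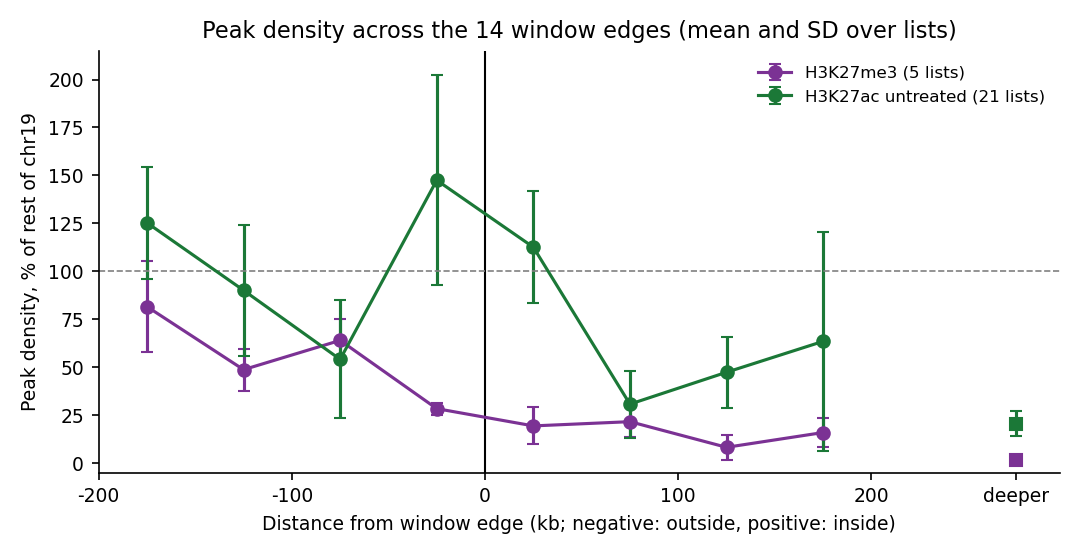
Peak density as a percent of the rest of chromosome 19, in bins of 50 kb from 200 kb outside to 200 kb inside the 14 window edges and, as squares, deeper inside; points are means and bars SD over 5 H3K27me3 and 21 untreated H3K27ac lists. H3K27me3 is at 28.5% in the last bin outside and 1.43% deep inside, and untreated H3K27ac is at 113% in the first bin inside and 20.7% deep inside.

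Long peak-free spans lay mostly in the windows over all lists together and with H3K27me3 alone, but not with H3K27ac alone. Over all 30 lists, and leaving out the longest span named above, 4 of the 5 longest spans of chromosome 19 without any peak lay in a window, as did 8 of the 10 longest and 16 of the 20 longest. The longest was 819 kb, from 22290288 to 23108949 in window 3, and the next was 654 kb, from 56957029 to 57610972 in window 7. With the H3K27me3 lists alone, 5 of the 5 longest and 9 of the 10 longest were in windows, the longest being 1391 kb from 19861309 to 21252758 in window 3. With the H3K27ac lists alone, 2 of 5 and 4 of 10 were, and the longest, at 1193 kb, lay in the rest of the chromosome.

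The H3K27ac regions in the windows recurred across lists about as often as elsewhere. Merging overlapping peaks of the 25 H3K27ac lists gave 152 regions in the windows, of which 25 (16.4%) were in at least 13 lists, against 259 of 1677 (15.4%) in the rest of chromosome 19 and 13.4% over all chromosomes. Regions found with all 4 H3K27ac antibodies numbered 40 of 152 (26.3%), against 27.8% in the rest of the chromosome and 21.3% over all chromosomes. In 1 list alone were 59 of the 152 (38.8%), where 47.4% were over all chromosomes. None of the 152 was in all 25 lists, where 1.06% of regions over all chromosomes were. The share overlapping a merged H3K27me3 region was 14 of 152 (9.21%), against 26.2% in the rest of the chromosome and 28.7% over all chromosomes.

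H3K27me3 regions in the windows recurred less. Of 87 merged regions, 11 were in at least 3 of the 5 lists (12.6%), where 27.8% were over all chromosomes, and 66 were in 1 list alone (75.9%), where 53.5% were over all chromosomes. In all 5 lists were 5 of the 87 (5.75%), where 10.3% were over all chromosomes. Overlap with a merged H3K27ac region was seen for 25 of 87 (28.7%), against 11.4% in the rest of chromosome 19 and 6.94% over all chromosomes, and 15 of those 25 were among the 17 regions of window 4.

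The most recurrent H3K27ac region of the windows was at 58895752 to 58901056, by the upper edge of window 7. It was called in 24 of 25 lists, including 4 of 4 TSA lists, with peaks covering 848 to 5163 bp of it per list. The strongest peak of each list there had a median signal percentile of 89.8, and no H3K27me3 peak overlapped the region. The most recurrent region of window 6, at 52691877 to 52695493, and that of window 4, at 36704489 to 36708957, were each in 20 lists, and neither was overlapped by H3K27me3. Both had lower median percentiles, of 71.1 and 51.8. Window 7 held 2 more regions in 20 or more lists, at 58872647 to 58875070 in 21 lists and at 56629142 to 56633995 in 20, named here after their values were seen. In window 2 a region at 12660234 to 12663721 was in 17 lists, and in window 3 a region at 23868981 to 23870380 was also in 17. The window 3 region was called in 5 ab177178 and 6 Diagenode lists but in only 1 of the Active Motif lists. In window 1 the region at 9894670 to 9897368 was in 12 lists, none of them TSA, and in window 5 the best region, at 44913648 to 44915801, was in only 2.

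Among H3K27me3 regions, 19858564 to 19861308 in window 3 was called in all 5 lists, with a median signal percentile of 61.4. The region at 56538057 to 56539883 in window 7 was likewise in all 5, with a median percentile of 83.2, and was 1 of 4 regions of that window in all lists. Both lay within 200 kb of a lower window edge. In window 5 the region at 44915068 to 44916099 was in 4 of 5 lists and overlapped H3K27ac peaks of 2 lists. In window 4 the most recurrent region, 36761639 to 36763936, was in 3 lists and lay in the stretch with both marks, overlapping H3K27ac peaks of 6 lists. The widest H3K27me3 peak of the 15-cycle list was 2943 bp long in window 7, from 56548774 to 56551716, and 612 bp long in window 5, from 44306353 to 44306964, while that list had no peak in window 6.

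The H3K27ac antibodies differed in how far the windows fell below the rest of chromosome 19. Over the 16 lists called at a common depth, with each antibody once in each of 4 protocols, the log2 density ratio averaged -1.30 ± 0.10 for ab177178, -1.75 ± 0.26 for ab4729, -2.05 ± 0.13 for Active Motif and -2.02 ± 0.25 for Diagenode (SD, n = 4 each). The exact permutation of antibody labels within protocols gave p = 0.00145, adjusted 0.00318. In these lists Diagenode was used at 1/50 and the others at 1/100, so for Diagenode antibody and dilution cannot be told apart. All 4 ab177178 lists, from -1.38 to -1.17, lay above all 4 lists of Active Motif and of Diagenode. ab177178 had 2.78 ± 0.489 peaks per Mb in the windows and 6.84 ± 1.31 in the rest of the chromosome, while Active Motif had 2.10 ± 0.813 in the windows and 8.65 ± 3.02 in the rest. Set against the other chromosomes, the antibody means were -0.19, 0.10, 0.22 and -0.17 in the same order and the difference did not pass (exact permutation p = 0.0886, adjusted 0.162). Without ab177178 the other 3 antibodies were not separated (exact permutation p = 0.0926, adjusted 0.146), and without ab4729 the adjusted exact permutation p was 0.0594. The ratio of ab177178 was -2.11 in its untreated list at 15 cycles, outside the range of its 4 other lists. The order of the antibodies was not the same at 15 cycles. There ab4729 stood at -1.42 and Diagenode at -1.41 and -1.49 (1/100 and 1/50), all above ab177178, and only Active Motif, at -2.28, was lower.

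**Figure D4:**
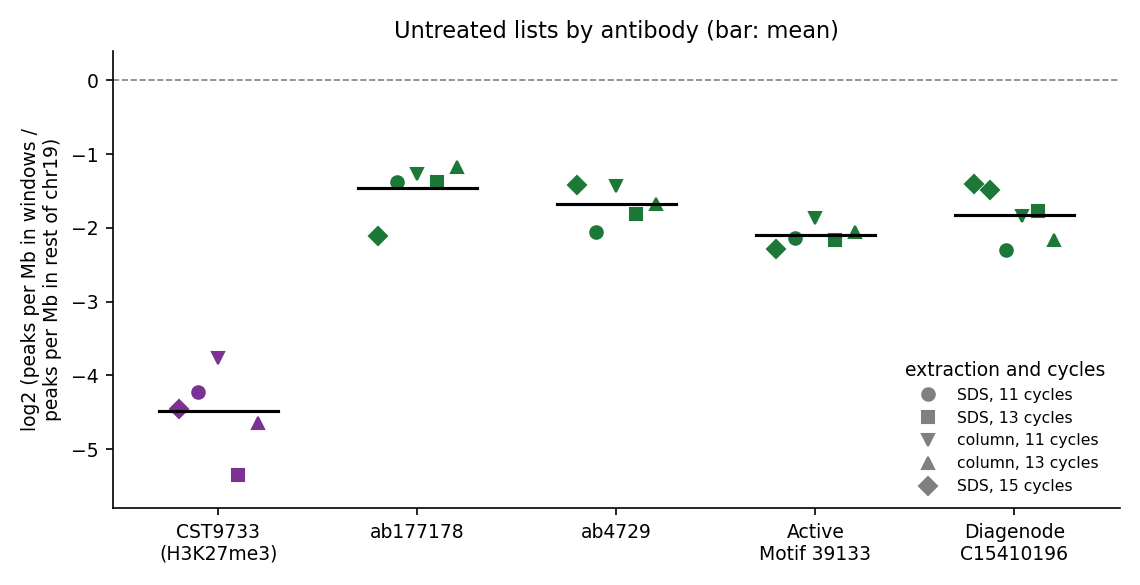
Log2 ratio of peak density in the windows over the rest of chromosome 19 for each untreated list, by antibody, with the marker shape giving extraction and PCR cycles and the bar the mean. The 5 H3K27me3 lists lie from -5.36 to -3.76 and the 21 H3K27ac lists from -2.30 to -1.17, and ab177178 lists other than the one at 15 cycles lie highest.

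The 4 pairs of TSA and untreated lists did not move in 1 direction. With ab177178 there were 40 window peaks with TSA, against 73 untreated, and with ab4729 there were 94, against 82. Window 4 held 27 of those 94 TSA peaks, against 14 of the 82 untreated peaks. Several regions there, between 37764195 and 37794482, were called in the ab4729 TSA list alone. The part of these regions in the ab4729 difference was not tested. With Diagenode there were 21 with TSA against 54 untreated at 1/100, and 34 against 71 at 1/50. Relative to the rest of chromosome 19, TSA minus untreated differences in log2 density ratio were 0.08 for ab177178, 0.18 for ab4729, and -0.85 and -0.45 for Diagenode at 1/100 and 1/50. The mean was -0.26 ± 0.48 (SD, n = 4 pairs; exact sign-flip permutation p = 0.5, adjusted 0.611), and the smallest p for 4 pairs is 0.125. TSA lists were shorter than their untreated partners in 3 pairs and longer for ab4729, and depth is unknown at 15 cycles.

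Window peaks called with TSA and absent from the untreated partner numbered 9 of 40 for ab177178 (22.5%), where 40.1% of the whole TSA list was absent. For ab4729 they were 42 of 94 (44.7%), where 48.4% of the list was, and 1 of the 42 lay on H3K27me3. For Diagenode they were 3 of 21 at 1/100 (14.3%), where 21.8% of the list was, and 0 of 34 at 1/50, where 6.4% was. The 95% Wilson interval for 0 of 34 reached 10.2%, so the depth of that count cannot show a difference from 6.4%. In the other direction, untreated window peaks absent with TSA were 43 of 73 for ab177178 (whole list 76.9%) and 35 of 82 for ab4729 (34.2%). For Diagenode they were 36 of 54 at 1/100 (57.5%) and 38 of 71 at 1/50 (58.4%). In the rest of chromosome 19, TSA peaks absent untreated were 42.1% (ab177178), 40% (ab4729), and 24.9% and 7.57% (Diagenode at 1/100 and 1/50). Untreated peaks absent with TSA there were 73.3%, 51.5%, 49.2% and 48.4%, in that order. With this comparator the direction reversed for ab4729 (44.7% and 42.7% in the windows) and for Diagenode 1/50 peaks absent with TSA (53.5%). None of these differences was tested.

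Extraction and cycle number moved the windows less than the marks differed. Column minus SDS differences in log2 density ratio for H3K27ac averaged 0.19 ± 0.30 (SD, n = 8 pairs), positive in 7 of 8 and negative only for Diagenode at 13 cycles, at -0.39 (exact sign-flip permutation p = 0.125, adjusted 0.172). At 11 cycles the mean was 0.36, with 4 of 4 pairs positive, and at 13 cycles it was 0.02. The H3K27me3 pairs gave 0.46 at 11 cycles, from 40 window peaks with a column and 23 with SDS, and 0.70 at 13 cycles, from 18 and 13. The H3K27ac differences of 13 minus 11 cycles averaged 0.01 ± 0.28 (SD, n = 8 pairs; exact sign-flip permutation p = 0.938, adjusted 0.938), with 3 positive and 5 negative. The H3K27me3 pairs gave -1.14 with SDS, from 13 window peaks at 13 cycles and 23 at 11, and -0.89 with a column, from 18 and 40. These H3K27me3 values rest on 1 pair each and have no test.

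**Figure D5:**
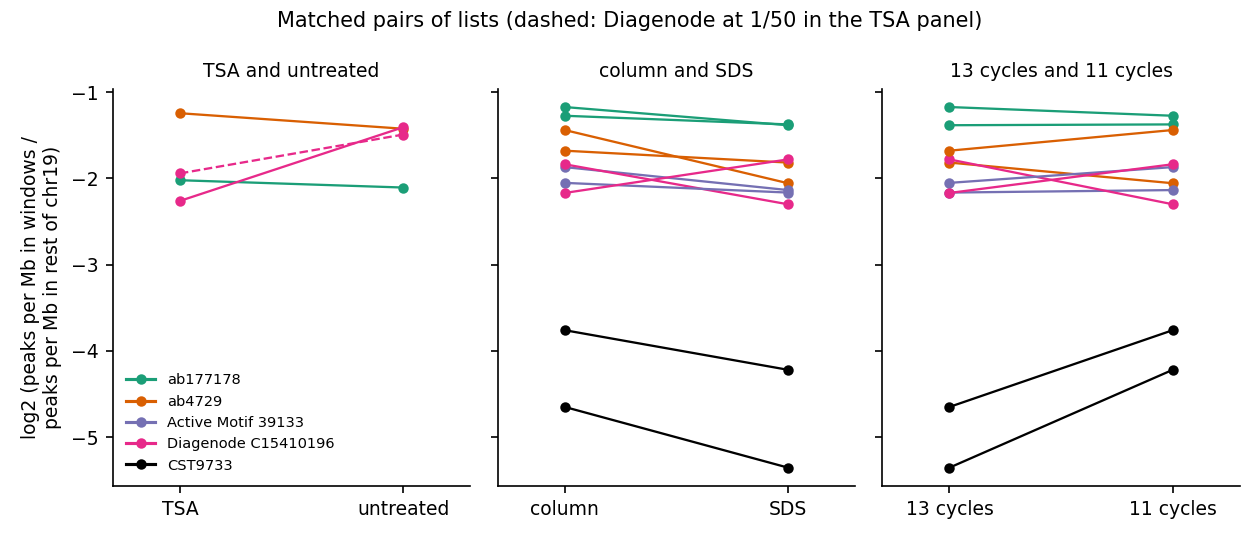
Log2 ratio of peak density in the windows over the rest of chromosome 19 in pairs of lists, with TSA and untreated, column and SDS, and 13 and 11 cycles in the 3 panels; each line joins 1 pair and its colour is the antibody. Both Diagenode pairs are lower with TSA, by 0.85 and 0.45, while the H3K27me3 pairs in black lie below -3.7 in every panel that holds them.

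The MACS2 lists, available for the 6 untreated libraries at 15 cycles, gave the same order of the marks. The log2 density ratio was -4.00 for H3K27me3, from 49 window peaks, against -2.64 to -1.36 for the 5 H3K27ac lists, which held 8 to 159 window peaks. Active Motif had the fewest window peaks with both callers, 8 with MACS2 and 14 with SEACR.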

How the data were processed

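Peak lists were made by the authors in hg19, one per library. The submitters' processing notes name bcl2fastq, Bowtie2 (2.2.9), Trim Galore (0.6.6), SAMtools (1.3.1), Picard (2.6.0), MACS2, SEACR and bedtools (2.25.0), and duplicates were removed per the labels. Downsampling to 1 read depth preceded calling for the 20 lists made with 11 or 13 cycles, per the labels, and is not described for 15 cycles. Read depth and the SEACR threshold: not given in the sources used here. Each deposited SEACR peak carries a total and a maximum signal, and the total was used only to rank peaks within a list. Of the deposited MACS2 files positions alone were used, not the score, the fold ratio, or the −log10 p-value and q-value columns.

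Windows and the rest of chromosome 19 were compared per list with Python 3.11.15, numpy 2.4.6, pandas 2.3.3 and scipy 1.17.1, using peak midpoints, peaks per Mb, merged covered bases and median widths. Limiting lists to chromosomes 1 to 22 and X dropped 0.449% to 5.82% of peaks. Tests were two-sided permutations over lists or pairs (exact, or 100000 resamples for the 21 lists), Benjamini-Hochberg adjusted over 11 tests, or 7 for windows. Wilson 95% intervals cover counting error only. The procedure was tested on simulated data. In each window the merged region of each mark found in most lists is named, ties broken by mean signal percentile, and the widest H3K27me3 peak at 15 cycles was tabulated. Members and lists were chosen with earlier results of these data known. Alternatives covered peak assignment, the peak-free span, the 50% of peaks with the most signal, 1 kb merging, the comparator, left-out antibodies, the longest window, overlap rules and MACS2. No sequence is printed, as no genome of the files' build was used here.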

Additional observations from a re-analysis of the deposited data

Results flagged for a closer look

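The covered share of Active Motif with a column at 11 cycles lay apart from the other 3 Active Motif lists called at a common depth. Its log2 ratio of covered bases, windows over rest of chromosome 19, was -2.08, and the nearest of the others was -2.35. It was found among 21 groups and measures looked at in this way, and chance alone sets apart about 1 in 20 such groups.

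The TSA minus untreated difference in log2 density ratio ran in opposite directions by antibody maker. Both Diagenode pairs were negative, at -0.85 and -0.45 (mean -0.65), and both Abcam pairs were positive, at 0.08 and 0.18 (mean 0.13). Diagenode minus Abcam was -0.79, and this difference was not tested. The pairs at 1/100 and 1/50 share the Diagenode antibody. In the ab4729 pair, window 4 held 27 TSA peaks against 14 untreated, several of them in regions called in the ab4729 TSA list alone.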

How the results depend on the processing

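The lower density and covered share of H3K27me3 than of H3K27ac kept their direction and passed in every setting with a test, with density differences from -4.15 to -2.48. The MACS2 lists at 15 cycles, which give no test, moved the density difference to -2.17. Windows 2, 3, 4, 6 and 7 kept their call in every setting run. The cause was not tested for any change below. With the other chromosomes as the comparator, the H3K27ac windows stood at 0.087 instead of below the rest, the antibody statistic was 0.12 and did not pass, and the values of column minus SDS (-0.037), of 13 minus 11 cycles (-0.10) and of width between marks (-0.014) changed sign, while window 5 passed at -1.32. With the 50% of each list that had the most signal, the overlap difference was -2.77 points and did not pass, TSA was 0.045, 13 minus 11 cycles was -0.15, and window 5 passed at -0.997. Merging peaks within 1 kb gave -0.068 for width between marks and 0.013 for window 5. Adding 1 to window counts gave -0.82 for window 5, which passed. All window 5 values rest on the added count, as 19 of 21 untreated H3K27ac lists had no peak there. Leaving out antibodies gave an antibody statistic of 0.057 without ab177178 and 0.36 without ab4729, neither of which passed, TSA of 0.13 and column minus SDS of 0.24 without Diagenode (the second now passing, adjusted exact permutation p = 0.0491), and 13 minus 11 cycles of -0.0040 without ab177178 and -0.020 without Diagenode. Without the longest window, 13 minus 11 cycles was -0.043 and width between marks -0.036. Among the settings chosen after seeing the data, including the TSA lists left window 1 at -1.19, which did not pass. The other 3 such settings, which left out the H3K27me3 column list at 11 cycles, the outer 200 kb of the windows or the wide stretch of window 4, changed no call. The labels give no replicate numbers, so no pairing beyond the matched conditions was used. Read depth at 15 cycles is unknown, so peak counts there cannot be set against depth, and windows with few peaks limit the width and overlap values.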
